A study of Mus musculus with 9 samples.

Results

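The 33 genes described here encode the enzymes and regulators of cholesterol and fatty acid synthesis that are controlled by sterol regulatory element-binding proteins (SREBPs). They were chosen by name, from a list of 21 sterol genes and 12 fatty acid genes, and all 33 were found among the 27179 genes of the count table. Polyadenylated RNA was sequenced from alveolar macrophages sorted by flow cytometry from the lungs of mice aged 1 week on a C57BL/6 background. The wild type group had 4 libraries and the group labelled Suz12 cKO, a conditional knockout of Suz12, had 5. Suz12 is a core subunit of Polycomb repressive complex 2, which methylates histone H3. The libraries of a group are called biological replicates in the series text. The sources used here do not say whether a library came from 1 mouse or a pool, which Cre drove the deletion in which cells, which exons were deleted, or whether the wild type mice carried Cre or floxed alleles. If the libraries of a group share mice, p-values measure only the spread between libraries.

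SREBPs are transcription factors made as precursors in the membrane of the endoplasmic reticulum. When sterols are scarce, Scap escorts the precursor to the Golgi, where the proteases encoded by Mbtps1 and Mbtps2 release the active part, and Insig proteins hold Scap back when sterols are plentiful. The product of Srebf2 acts mainly on sterol synthesis and uptake, and the products of Srebf1 act more on fatty acid synthesis and desaturation. Srebf1 is also a target of the oxysterol-activated liver X receptors (LXRs). Alveolar macrophages take up and degrade surfactant, a mixture rich in phospholipids and cholesterol.

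Total counts ran from 13814799 to 45606001 per library. Suz12 stood at 51.7 to 76.7 CPM (counts per 1000000, with libraries scaled by the TMM method) in wild type and 11.9 to 21.8 CPM in knockout, so its level followed the labels. Of 13 alveolar macrophage markers, all passed the count filter, with Siglecf at 372 to 502 CPM and Mrc1 at 1794 to 2198 CPM over all libraries. In that list Marco was called higher and Car4, Fabp5 and Cd68 were called lower, where 8.97% and 11.0% of all tested genes were called. The summed level was 24222 to 62801 CPM in wild type and 16901 to 43351 CPM in knockout, with Chil3 the most abundant gene of the list. In a fit corrected for gene length, used for the lipid genes too, Car4, Fabp5 and Cd68 were not called (adjusted p = 0.0863, 0.71 and 0.893, edgeR), and Pparg, Ear1 and Ear2 were called higher beside Marco. At equal depth more genes were detected in knockout (14759 to 15889) than in wild type (12396 to 13296). Wild type library 3 stood apart from the other wild type libraries on the first principal component of all tested genes.

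The upstream sequences of the sterol genes that changed are shown first, with Hmgcs1 for its match to the classical sterol regulatory element and Acly as the fatty acid gene that changed. Of the 33 genes, 26 matched an entry of the RefSeq promoter table (GRCm38.p6), and the 250 bases before the annotated start were searched on both strands. Fads1, Fdft1, Fdps, Scd1, Scd2, Sqle and Stard4 had no entry. Each sequence reads 5′ to 3′ towards the start. Capitals mark the sterol regulatory element TCACNCCAC and the CCAAT box, the binding sequence of the factor NF-Y, in either orientation.
Hmgcs1 (chr13:119690101-119690350, plus strand): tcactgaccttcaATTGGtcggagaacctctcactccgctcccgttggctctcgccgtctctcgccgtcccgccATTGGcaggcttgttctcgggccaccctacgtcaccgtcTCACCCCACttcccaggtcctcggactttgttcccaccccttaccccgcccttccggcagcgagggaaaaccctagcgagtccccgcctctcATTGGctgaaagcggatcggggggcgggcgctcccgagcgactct
Insig1 (chr5:28071162-28071411, plus strand): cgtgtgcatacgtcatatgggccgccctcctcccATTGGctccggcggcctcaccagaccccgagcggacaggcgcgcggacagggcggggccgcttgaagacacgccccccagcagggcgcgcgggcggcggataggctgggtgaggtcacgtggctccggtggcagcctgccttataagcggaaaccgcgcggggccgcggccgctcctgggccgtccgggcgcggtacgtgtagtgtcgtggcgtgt
Msmo1 (chr8:64733579-64733828, minus strand): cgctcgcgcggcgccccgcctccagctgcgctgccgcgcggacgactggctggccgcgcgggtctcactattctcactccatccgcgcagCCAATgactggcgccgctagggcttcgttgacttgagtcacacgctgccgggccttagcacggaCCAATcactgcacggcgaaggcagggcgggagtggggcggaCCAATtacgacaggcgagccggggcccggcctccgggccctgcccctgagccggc
Ebp (chrX:8193513-8193762, minus strand): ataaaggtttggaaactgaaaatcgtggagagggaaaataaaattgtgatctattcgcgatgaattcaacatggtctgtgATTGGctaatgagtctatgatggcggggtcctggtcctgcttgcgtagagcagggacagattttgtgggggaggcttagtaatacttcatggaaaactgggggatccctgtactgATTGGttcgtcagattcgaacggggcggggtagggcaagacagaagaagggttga
Idi1 (chr13:8885356-8885605, plus strand): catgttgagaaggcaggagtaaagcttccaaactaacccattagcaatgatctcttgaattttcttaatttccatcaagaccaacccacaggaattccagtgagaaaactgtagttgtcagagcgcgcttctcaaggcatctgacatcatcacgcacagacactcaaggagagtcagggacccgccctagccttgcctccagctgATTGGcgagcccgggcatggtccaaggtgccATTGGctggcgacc
Nsdhl (chrX:72918271-72918520, plus strand): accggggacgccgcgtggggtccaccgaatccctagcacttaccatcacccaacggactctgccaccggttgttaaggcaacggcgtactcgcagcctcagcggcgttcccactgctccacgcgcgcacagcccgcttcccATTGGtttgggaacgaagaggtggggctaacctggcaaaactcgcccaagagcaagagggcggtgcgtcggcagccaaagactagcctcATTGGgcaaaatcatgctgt
Acly (chr11:100528001-100528250, minus strand): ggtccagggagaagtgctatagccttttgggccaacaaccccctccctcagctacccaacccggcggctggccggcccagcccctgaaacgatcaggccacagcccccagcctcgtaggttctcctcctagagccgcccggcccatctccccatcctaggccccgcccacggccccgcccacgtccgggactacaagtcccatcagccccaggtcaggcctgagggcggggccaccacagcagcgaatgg

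The upstream windows of the sterol branch shared CCAAT and GC boxes. A CCAAT box was found for 16 of 17 sterol genes with an entry and for 5 of 9 fatty acid genes, against 33.8% of all 32851 windows and 41% of tested genes with an entry. The GC box GGGCGG, read by Sp1-type factors, was found for 16 of 17 sterol and 4 of 9 fatty acid genes, against 32.7% of all windows and 62.9% of tested genes. The exact letters TCACNCCAC occurred only before Hmgcs1 among these genes, and in 1.05% of all windows. The E-box CACGTG was found for 4 of 17 sterol genes and 1 of 9 fatty acid genes, against 6.02% of all windows and 9.97% of tested genes. These matches describe letters in a window and not bound sites. Msmo1, Ebp, Idi1 and Nsdhl, which fell in knockout, and Insig1, which rose, all had CCAAT boxes in these windows, and Acly had none.

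Knockout was compared with wild type for each gene and for both branches. Few members changed, and in both directions. In the sterol branch Msmo1, Ebp, Idi1 and Nsdhl were lower in knockout, Insig1 was higher, and the other 16 genes did not pass the threshold. In the fatty acid branch Acly was slightly higher and none was lower. Calls were made with the edgeR quasi-likelihood test over all 12840 genes that passed the count filter, at a Benjamini-Hochberg adjusted p under 0.05, and fold changes are log2, knockout minus wild type. Of the 33 members, Acacb did not pass the filter.

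Across all tested genes 8.97% were called higher and 11.0% lower. Among the tested sterol genes 1 of 21 was higher and 4 of 21 lower, and among the tested fatty acid genes 1 of 11 was higher and 0 of 11 lower. Over both branches 6 of 32 were called (18.8%), close to the share of all tested genes (19.9%). The groups did not overlap for 6 of 21 sterol and 2 of 11 fatty acid genes, against 20.8% of all tested genes. The median log2 fold change was -0.03 in the sterol branch, 0.19 in the fatty acid branch and 0.04 over all tested genes. With libraries scaled by their totals alone the sterol median was 0.08, the median of all genes 0.15, and 1966 genes were called higher and 1013 lower in place of 1152 and 1409. Of the sterol genes 14 of 21 had a fold change below 0, and of the fatty acid genes 2 of 11.

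**Figure D1:**
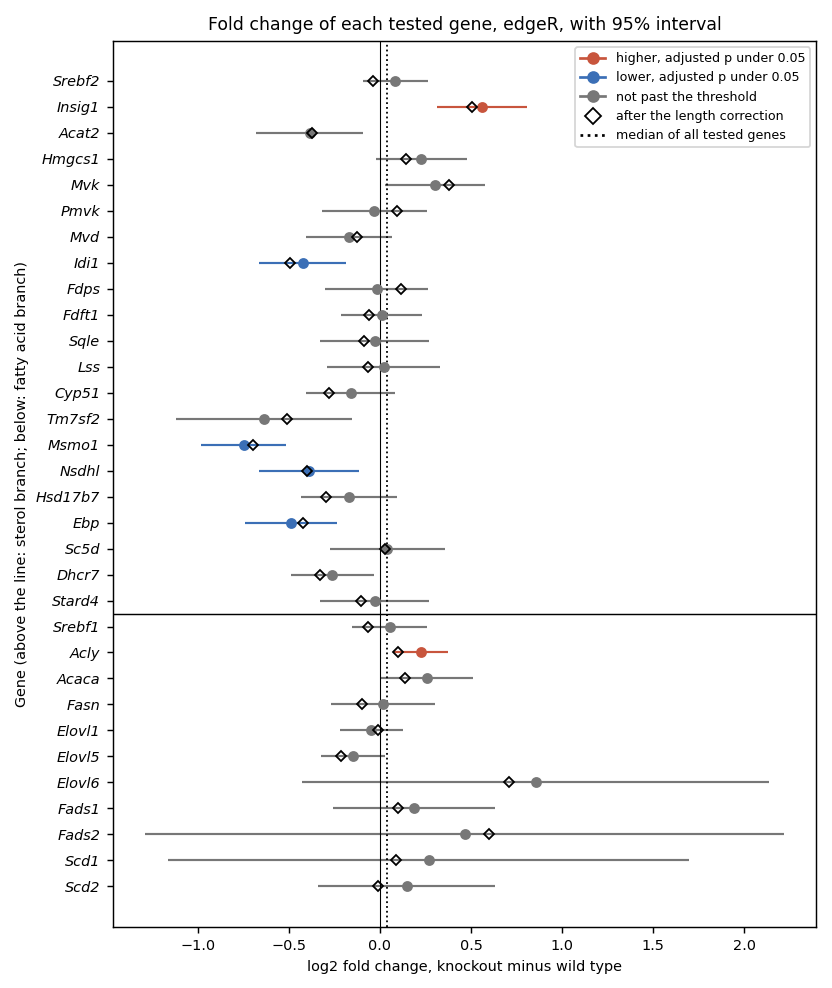
Log2 fold change (knockout minus wild type, x axis) of the 32 tested genes in pathway order (y axis), with 95% intervals of the edgeR fit, and open diamonds for the value after the length correction. Insig1 and Acly lie above 0 in red, Msmo1, Ebp, Idi1 and Nsdhl lie below 0 in blue, and the dotted line is the median of all tested genes.

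Gene length moved with genotype and differed between the branches. Over all tested genes the median log2 fold change was -0.52 in the shortest of 20 bins of length (median 508 bases) and 0.13 in the longest (median 8896 bases). The tested sterol genes had a median length of 2648 bases against 4427 in the fatty acid branch and 2714 over all tested genes. A length correction, in which a robust curve of each library's deviations on gene length entered the fit as an offset, called 7.35% of genes higher and 8.56% lower. With it Insig1 was called higher (adjusted p = 0.00787) and Msmo1, Ebp and Idi1 were called lower (adjusted p = 7.44e-04, 0.0194 and 0.00893), and Nsdhl (0.0536) and Acly (0.295) were not called. The branch medians became -0.10 and 0.09, against 0.02 over all tested genes.

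**Figure D2:**
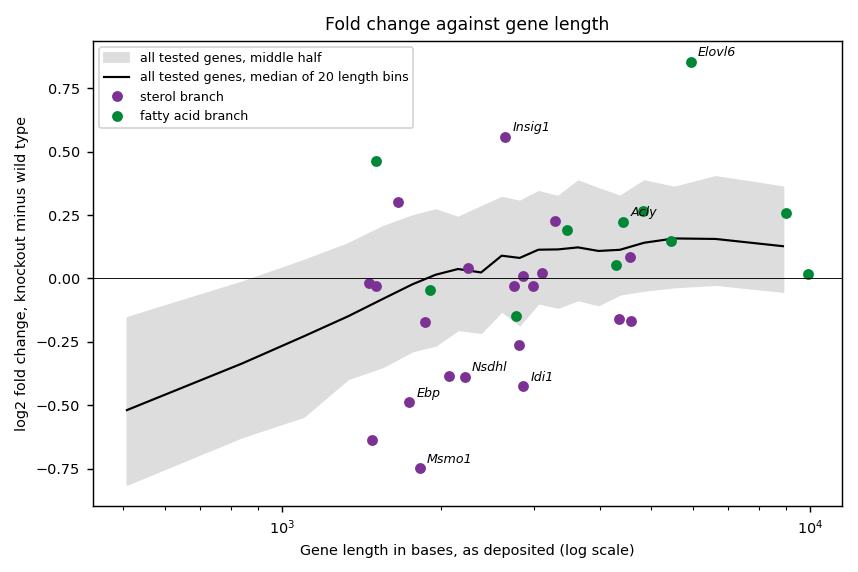
Log2 fold change (knockout minus wild type, y axis) of each tested gene against its deposited length (x axis, log scale), with sterol genes in purple and fatty acid genes in green. The black line is the median of all tested genes in 20 bins of length and the grey band runs from the lower to the upper quartile, and Msmo1, Ebp, Idi1 and Nsdhl lie below the line while Insig1 lies above it.

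Among the regulators, Insig1 rose while the transcripts of the SREBPs themselves did not pass the threshold. Insig1, which retains Scap in the endoplasmic reticulum and is itself an SREBP target (Entrez Gene 231070, chromosome 5, positions 28071412 to 28078662 of GRCm38), stood at 121, 112, 114 and 116 CPM in wild type libraries 1 to 4 and 136, 163, 219.5, 164 and 171 CPM in knockout libraries 1 to 5. Each knockout library lay above each wild type library, and knockout library 3 was highest. Its mean was 116 ± 4.04 CPM (SD, n = 4) in wild type against 171 ± 30.3 CPM (SD, n = 5) in knockout (log2 difference 0.56 with SE 0.12, adjusted p = 0.00368, edgeR). Leaving out each library in turn gave log2 fold changes of 0.46 to 0.63, all called. It was not called with the least-squares form of the length correction, fitted before the robust form was chosen (adjusted p = 0.0751).

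Srebf2 stood at 214, 218, 194 and 214 CPM in wild type libraries 1 to 4 and 207, 241, 207, 214 and 247 CPM in knockout libraries 1 to 5, with overlapping groups. Its log2 fold change was 0.08, with a 95% interval of -0.09 to 0.26 (adjusted p = 0.53, edgeR). Srebf1 stood at 113, 110.1, 114 and 100.04 CPM in wild type libraries 1 to 4 and 104, 126, 128, 96.3 and 113 CPM in knockout libraries 1 to 5, again with overlap. Its log2 fold change was 0.05 (95% interval -0.15 to 0.26, adjusted p = 0.755, edgeR). The counts do not separate the Srebf1 isoforms, and RNA level says nothing on precursor cleavage, which was not measured. Per kilobase of gene length, Srebf2 was the more abundant SREBP gene at 46 CPM per kilobase in wild type, against 25.4 for Srebf1.

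The enzymes that build mevalonate from acetyl-CoA did not pass the threshold. Hmgcs1, the HMG-CoA synthase, stood at 226, 230.2, 165 and 237 CPM in wild type libraries 1 to 4 and 214, 265, 291, 230.1 and 257 CPM in knockout libraries 1 to 5, and the groups overlapped. It had a log2 fold change of 0.23 (95% interval -0.02 to 0.48, adjusted p = 0.199, edgeR). Mvk, mevalonate kinase, did not overlap between groups (15.7 to 21.9 CPM in wild type, 22.6 to 25.1 CPM in knockout), with a log2 fold change of 0.30 (adjusted p = 0.117, edgeR). With libraries scaled by their totals alone it was called (adjusted p = 0.0412). Pmvk and Mvd, which carry mevalonate on to isopentenyl diphosphate, had log2 fold changes of -0.03 and -0.17. Pmvk stood at 35.2 to 50.4 CPM in wild type and 35.7 to 50.4 CPM in knockout, and the Mvd libraries overlapped as well, at 77.7 to 98 CPM in wild type and 67.2 to 90.6 CPM in knockout. Acat2, the cytosolic thiolase that makes acetoacetyl-CoA, had -0.39 (SE 0.14, adjusted p = 0.0622, edgeR). It was called with DESeq2 (adjusted p = 0.0446) and without wild type library 2 (0.0385). Of the distinct 85-base stretches of Acat2 transcripts 31.9% also occur in another gene, mainly its paralog Acat3, so its counts are uncertain.

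From isopentenyl diphosphate to squalene, Idi1 fell and the others did not pass the threshold. Idi1, the isomerase of the isoprenoid building block (Entrez Gene 319554, chromosome 13, positions 8885606 to 8892396), stood at 76.5, 66.5, 71.8 and 82.1 CPM in wild type libraries 1 to 4 and 43, 59.9, 56, 60.3 and 57.5 CPM in knockout libraries 1 to 5. All wild type libraries lay above all knockout libraries, and knockout library 1 was lowest. Its mean was 74.2 ± 6.66 CPM (SD, n = 4) in wild type against 55.4 ± 7.11 CPM (SD, n = 5) in knockout (log2 difference -0.42 with SE 0.11, adjusted p = 0.0153, edgeR). Without wild type library 4 the adjusted p was 0.061, and with libraries scaled by their totals alone it was 0.065. Of its 85-base stretches 22.9% occur in other genes, so reads of Idi1 could be shared with them, and the sources used here do not say how such reads were counted.

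Fdps (farnesyl diphosphate synthase), Fdft1 (squalene synthase) and Sqle (squalene epoxidase) had log2 fold changes of -0.02, 0.01 and -0.03. Fdps stood at 42.6 to 54.1 CPM in wild type and 34.5 to 53.2 CPM in knockout. Fdft1 stood at 56.8 to 69.6 CPM in wild type and 53.5 to 70.6 CPM in knockout, with knockout library 1 lowest. The 95% intervals of the 3 genes were -0.30 to 0.27, -0.21 to 0.23 and -0.33 to 0.27. Exons of Fdft1 overlap those of Ctsb on the opposite strand over 18.3% of its exonic bases, and the strand setting of the counting is not given. Sqle, a control point of the pathway, ranged from 64.4 to 101 CPM in wild type and from 70.5 to 102 CPM in knockout.

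From lanosterol to cholesterol, Msmo1, Ebp and, narrowly, Nsdhl fell. Of 9 members from Lss to Dhcr7, 3 fell and none rose, with a median log2 fold change of -0.26 against 0.04 over all tested genes. Msmo1, the methylsterol monooxygenase that starts removal of the methyl groups at carbon 4 of the sterol ring (Entrez Gene 66234, chromosome 8, positions 64718123 to 64733578), stood at 176, 151, 198 and 202 CPM in wild type libraries 1 to 4 and 86.7, 119, 114, 111 and 109.9 CPM in knockout libraries 1 to 5. Every wild type library lay above every knockout library, with knockout library 1 lowest. Its mean was 182 ± 23.7 CPM (SD, n = 4) in wild type against 108 ± 12.4 CPM (SD, n = 5) in knockout (log2 difference -0.75 with SE 0.11, adjusted p = 3.82e-04, edgeR). It was called under every alternative run, with log2 fold changes between -0.93 and -0.63, and genes within 1.1-fold of its length had a median of -0.005.

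Nsdhl, the dehydrogenase of the same demethylation (Entrez Gene 18194, chromosome X, positions 72918521 to 72958528), stood at 41, 48, 57.3 and 45.4 CPM in wild type libraries 1 to 4 and 31, 38.1, 36.6, 33.3 and 43.9 CPM in knockout libraries 1 to 5. The groups overlapped, since knockout library 5 lay above wild type library 1. Its mean was 47.9 ± 6.9 CPM (SD, n = 4) in wild type against 36.6 ± 4.93 CPM (SD, n = 5) in knockout (log2 difference -0.39 with SE 0.13, adjusted p = 0.0475, edgeR), a narrow call. The call was lost when any one of knockout libraries 1 to 4 was left out (adjusted p = 0.115, 0.0802, 0.0707 and 0.102) or any one of wild type libraries 2 to 4 (0.0727, 0.132 and 0.0717). Hsd17b7, the ketoreductase of that step, had -0.17 (95% interval -0.43 to 0.09, adjusted p = 0.372, edgeR). Erg28, the scaffold protein of the complex and not among the 33, fell, at 33.9 ± 3.72 CPM (SD, n = 4) in wild type against 23.3 ± 2.63 CPM (SD, n = 5) in knockout (log2 difference -0.54 with SE 0.13, adjusted p = 0.00761, edgeR). At 1185 bases it is short, and after the length correction it was not called (-0.32, adjusted p = 0.0916).

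Ebp, the sterol isomerase that acts next on the ring double bond (Entrez Gene 13595, chromosome X, positions 8185329 to 8193512), stood at 87.2, 67.4, 63.5 and 95.1 CPM in wild type libraries 1 to 4 and 54.2, 53.1, 57.6, 58.6 and 56.1 CPM in knockout libraries 1 to 5. The groups did not overlap, and the knockout libraries were close together while the wild type libraries were spread. The mean of Ebp was 78.3 ± 15.3 CPM (SD, n = 4) in wild type against 55.9 ± 2.29 CPM (SD, n = 5) in knockout (log2 difference -0.49 with SE 0.12, adjusted p = 0.00943, edgeR). It was called without each library in turn (adjusted p 0.00367 to 0.0405). Nsdhl and Ebp lie on the X chromosome, and the inactive X transcript Xist was at 449.6, 384, 336 and 0.0421 CPM in wild type libraries 1 to 4 and at 0.0211, 397, 0.134, 0 and 360.5 CPM in knockout libraries 1 to 5. A fit with the log2 level of Xist as a covariate was added to the planned ones. In it Ebp was called (-0.54, adjusted p = 0.00638) and Nsdhl was not (-0.32, adjusted p = 0.102).

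The remaining sterol enzymes did not pass the threshold. Tm7sf2, a sterol reductase and the least abundant sterol gene per length, ranged from 6.35 to 8.98 CPM in wild type and from 4.31 to 5.93 CPM in knockout, without overlap. Its log2 fold change was -0.64 (SE 0.23, adjusted p = 0.0632 by edgeR and 0.0246 by DESeq2). Its exons share 12.1% of their bases with Vps51 on the same strand, and its counts are uncertain to that extent. Dhcr7, the reductase of the last step of one route to cholesterol, stood at 69.7 to 93.3 CPM in wild type and 57.5 to 72.9 CPM in knockout, a log2 fold change of -0.26 (adjusted p = 0.102, edgeR). Lanosterol synthase Lss had a log2 fold change of 0.02 (95% interval -0.29 to 0.33), the lanosterol demethylase Cyp51 -0.16 (-0.41 to 0.09) and the desaturase Sc5d 0.04 (-0.28 to 0.36). Cyp51 was one of the more abundant sterol genes, at 167, 162, 165 and 169 CPM in the wild type libraries and 111, 164, 154, 136 and 176 CPM in the knockout libraries. The wild type libraries of Cyp51 were close together, and knockout library 1 was lowest. Stard4, which moves cholesterol between membranes, had a log2 fold change of -0.03 with a 95% interval of -0.33 to 0.27.

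Compared per kilobase of gene length, the order of the sterol genes changed at its top. In wild type Msmo1 had the highest mean of the 21 genes, 99.5 CPM per kilobase, followed by Hmgcs1 at 65.4. In knockout Hmgcs1 was highest at 76.6 CPM per kilobase, and Msmo1 stood at 59.3, next to Insig1 at 64.5. The summed level of the 21 sterol genes was 1711 ± 58.1 CPM in wild type (SD, n = 4) and 1638 ± 165 CPM in knockout (SD, n = 5), with overlapping libraries.

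Knockout library 1 held the least sterol transcripts. It was the lowest knockout library for 19 of the 21 sterol genes, and its summed level was 1373 CPM against 1580.1 to 1754 CPM in the other knockout libraries. It was the lowest for 2 of the 12 fatty acid genes. Without it, 1 sterol gene was higher and 3 were lower, where 6.23% and 9.06% of all genes were called, and the sterol median was 0.02. The map of levels by library shows this column as the palest or bluest of the knockout columns through the sterol genes.

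**Figure D3:**
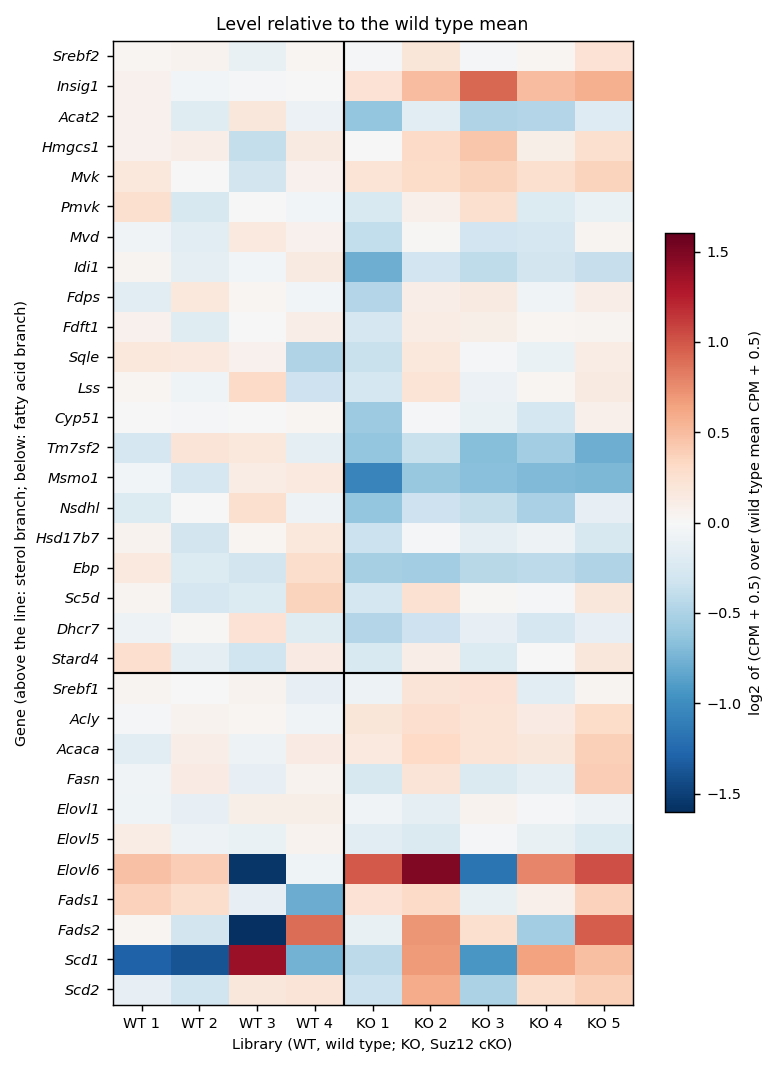
Level of 32 genes (rows, sterol branch above the line, fatty acid branch below) in each library (columns) as the log2 of CPM + 0.5 over the wild type mean + 0.5, red above and blue below it. Insig1 is red in all 5 knockout libraries and Msmo1, Ebp and Idi1 are blue in all 5, and Elovl6 is dark blue in wild type library 3 and blue in knockout library 3, where colours saturate at the ends of the scale.

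In the fatty acid branch, Acly was the single gene called. Acly, the ATP citrate lyase that supplies cytosolic acetyl-CoA to both branches (Entrez Gene 104112, chromosome 11, positions 100476352 to 100528000), stood at 424, 448, 439 and 414 CPM in wild type libraries 1 to 4 and 492, 521, 503, 472 and 529 CPM in knockout libraries 1 to 5. The groups did not overlap. The mean of Acly was 431 ± 15.2 CPM (SD, n = 4) in wild type against 503 ± 22.7 CPM (SD, n = 5) in knockout (log2 difference 0.22 with SE 0.07, adjusted p = 0.036, edgeR), the smallest change among the called members. Genes within 1.1-fold of its length (4427 bases) had a median of 0.12, and the length-corrected value was 0.10 (adjusted p = 0.295). The call was lost on leaving out knockout 1, 2 or 5 (adjusted p = 0.065, 0.0911 and 0.0927), wild type 1 or 4 (0.0735 and 0.0855), and after thinning all libraries to equal depth (0.0507).

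Acaca and Fasn were not called, and Acacb was called only in fits in which it passed the count filter or none was used. Acaca, the cytosolic acetyl-CoA carboxylase, ranged from 21.7 to 27.2 CPM in wild type and from 27.5 to 32.3 CPM in knockout. Its log2 fold change was 0.26 (adjusted p = 0.147, edgeR, and 0.0448 with libraries scaled by their totals alone). Fasn, the fatty acid synthase, stood at 94.3, 108, 89.6 and 102 CPM in wild type libraries 1 to 4 and 82.6, 113, 83.8, 87.8 and 129.7 CPM in knockout libraries 1 to 5. The Fasn groups overlapped, with knockout library 5 highest, and the log2 fold change was 0.02 (95% interval -0.27 to 0.30). Acacb, the carboxylase isoform at mitochondria, had 0 counts in all 4 wild type libraries and 13, 15, 19, 16 and 8 counts in knockout libraries 1 to 5. It did not pass the count filter with all libraries, and was called higher with no filter and on leaving out wild type 1, 2, 3 or 4. With 0 counts in wild type, Acacb could pass the filter only through the knockout libraries. In the fits without a wild type library Acacb could therefore only come out higher, and these calls are not separate support for its change. Against a floor of 3 counts over the wild type group its level was at least 10.4-fold higher in knockout, a bound that covers counting error only. At equal depth more genes were detected in knockout, as given above, and the part of that in the Acacb counts was not tested. In bulk RNA, a low level in every cell cannot be told apart from a high level in few cells.

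No elongase or desaturase passed the threshold, and several were spread widely within a group. Elovl1 and Elovl5, which lengthen very long and polyunsaturated chains, had log2 fold changes of -0.05 and -0.15, with intervals of -0.22 to 0.13 and -0.33 to 0.03. Elovl6, which lengthens palmitate to stearate, stood at 19.5, 18.6, 4.45 and 13.4 CPM in wild type libraries 1 to 4 and 28.2, 40.0, 5.93, 24.5 and 29.2 CPM in knockout libraries 1 to 5. Both libraries numbered 3 were far below the rest of their group. The fold change was 0.85 (SE 0.56, adjusted p = 0.346, edgeR). Without knockout library 3 it was 1.11 (adjusted p = 0.0426), and without both libraries 0.84 (adjusted p = 0.00705), alternatives that leave fewer libraries and of which the second was added after seeing the data.

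Scd1, a stearoyl-CoA desaturase, stood at 2.33, 2.16, 17.7 and 3.62 CPM in wild type libraries 1 to 4 and 4.71, 10.6, 3.15, 10.4 and 9.18 CPM in knockout libraries 1 to 5. Wild type library 3 was above every other library. With all libraries the log2 fold change was 0.27 (SE 0.65, adjusted p = 0.818, edgeR), and without wild type library 3 it was 1.5 (adjusted p = 0.0235). Scd2, its paralog and the more abundant of the pair, stood at 103, 90.4, 127 and 129 CPM in wild type libraries 1 to 4 and 88.9, 170.3, 78.9, 137 and 147 CPM in knockout libraries 1 to 5. The Scd2 groups overlapped, with a log2 fold change of 0.15 and a 95% interval of -0.34 to 0.63. In wild type Scd2 was at 20.6 CPM per kilobase against 1.33 for Scd1. Fads1 and Fads2, the desaturases of polyunsaturated fatty acids, had log2 fold changes of 0.19 and 0.46 with intervals of -0.26 to 0.63 and -1.29 to 2.22, with Fads1 at 12 to 27.5 CPM in wild type and 19.4 to 27.5 CPM in knockout. Fads2 stood at 0 to 2.74 CPM over all libraries.

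**Figure D4:**
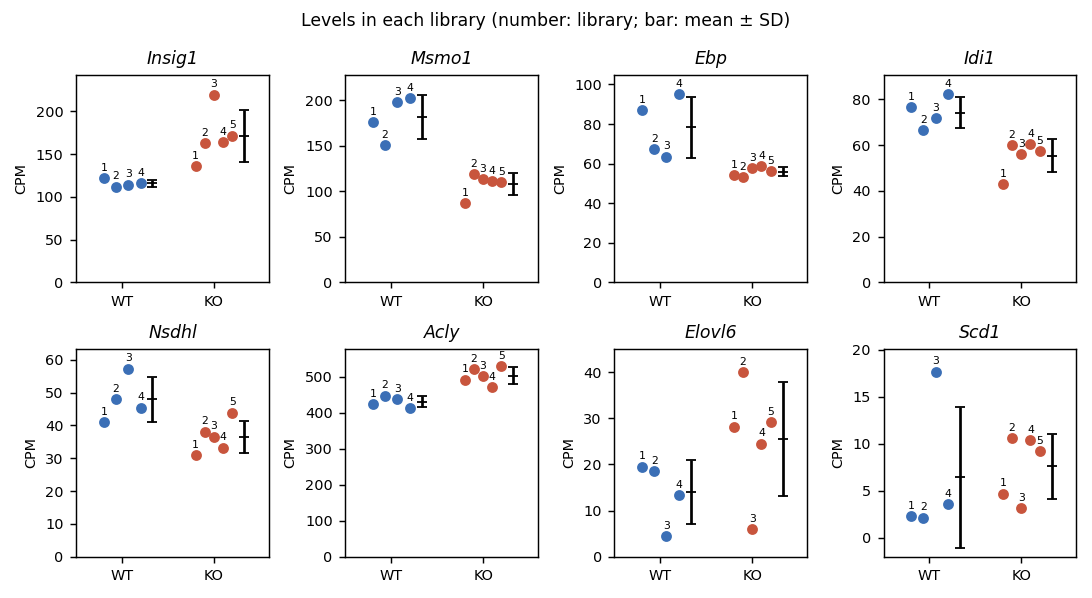
CPM (y axis) of 8 genes in each wild type (WT, blue) and knockout (KO, red) library, numbered as in the labels, with bars for mean ± SD. Insig1, Msmo1, Ebp, Idi1 and Acly do not overlap between the groups, Nsdhl overlaps, and libraries 3 of both groups are lowest for Elovl6 while wild type library 3 is highest for Scd1.

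The summed level of the 12 fatty acid genes was 1118 ± 8.62 CPM in wild type (SD, n = 4) and 1207 ± 80.7 CPM in knockout (SD, n = 5). The highest wild type library (1129 CPM) and the lowest knockout library (1129 CPM) met without overlap. Acly was the most abundant member and made up 431 CPM of the sum in wild type. Without both libraries numbered 3, Acly, Elovl6 and Scd1 were called higher, in place of Acly alone. In that fit 1 sterol gene was higher and 3 were lower, where 10.9% and 11.0% of all genes were called.

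Other genes of the pathway were taken from a list of 59, of which 58 were in the count table and 53 passed the filter, and 13 were higher and 5 lower. These are 24.5% and 9.43% of the tested list, against 8.97% and 11.0% of all tested genes, and the median log2 fold change was 0.13 against 0.04. The tested list had a median length of 3470 bases against 2714 over all tested genes. After the length correction 11 were higher and 5 lower, where 7.35% and 8.56% of all tested genes were called. The median was then 0.05 against 0.02. The list was drawn up with earlier results of these data known. Among 9 genes of SREBP processing and sterol sensing 4 were higher and none lower, against 8.97% and 11.0% of all tested genes. Scap, the SREBP escort, rose, with 85.1 ± 6.63 CPM in wild type against 105 ± 5.88 CPM in knockout (log2 difference 0.30 with SE 0.08, adjusted p = 0.0221, edgeR) and Mbtps1, the protease of the first cut, with 86.7 ± 8.32 against 104 ± 3.59 CPM (0.27, adjusted p = 0.0357). Rnf145, a sterol-responsive ubiquitin ligase, rose by 0.57 (adjusted p = 0.0058) and Ubxn4, of the endoplasmic reticulum degradation machinery, by 0.37 on the log2 scale (adjusted p = 0.0167). After the length correction Scap and Mbtps1 were not called (adjusted p = 0.117 and 0.279). Scap also lost its call on leaving out knockout 1, knockout 5 or wild type 4 (adjusted p = 0.0702, 0.0525 and 0.0568), and Ubxn4 on leaving out wild type 1 (0.0513). Mbtps1 lost it on leaving out knockout 1, 2, 3 or 5 (0.0808, 0.0625, 0.0519 and 0.0800) or wild type 1 or 4 (0.0852 and 0.0892).

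Among 6 tested genes of sterol uptake, transfer and esterification none was higher and 1 was lower, against 8.97% and 11.0% of all tested genes. The esterifying enzyme Soat1 fell by 0.29 on the log2 scale (adjusted p = 0.0368, edgeR). Soat1 lost its call on leaving out knockout 1, 2 or 3 (adjusted p = 0.0827, 0.0779 and 0.0581) or wild type 1, 3 or 4 (0.0666, 0.0943 and 0.104).

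Oxysterol and LXR genes gave 2 higher and 2 lower of 7 tested, where 8.97% and 11.0% of all tested genes were called. Mylip, an LXR target that degrades the LDL receptor, rose, at 34.1 ± 3.46 CPM (SD, n = 4) in wild type against 67.2 ± 6.26 CPM (SD, n = 5) in knockout (log2 difference 0.98 with SE 0.11, adjusted p = 8.38e-05, edgeR), with no overlap. Abca1, the LXR-driven cholesterol exporter, rose by 1.11 on the log2 scale (adjusted p = 1.22e-04, edgeR). Srebf1, an LXR target as well, and Abcg1 did not pass the threshold, with log2 fold changes of 0.05 and -0.02. Nr1h3, which encodes LXR alpha, fell, with 58.3 ± 5.87 CPM in wild type against 44.5 ± 6.46 CPM in knockout (log2 difference -0.39 with SE 0.12, adjusted p = 0.0318, edgeR), with overlapping groups at 50.3 to 64 and 39.7 to 55.1 CPM. Ch25h, which makes an oxysterol that restrains SREBP processing, fell by 2.40 on the log2 scale (adjusted p = 0.00462, edgeR). Nr1h3 lost its call on leaving out knockout 1, 2, 4 or 5 (adjusted p = 0.0769, 0.0859, 0.0524 and 0.0832) or wild type 1, 2 or 4 (0.0744, 0.0768 and 0.0827).

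Among 17 tested genes of fatty acid synthesis outside the 33, 2 were higher and 1 was lower, a share of 17.6% called, near the 19.9% of all tested genes. After the length correction 4 were higher and 2 lower, where 7.35% and 8.56% of all tested genes were called. Slc25a1 and Tecr were then also called higher (adjusted p = 0.0131 and 0.0309, edgeR) and Hacd3 lower (0.019). The median log2 fold change of the 17 genes was 0.11 before the correction and 0.31 after it. Me1, the malic enzyme that supplies NADPH, stood at 0.776, 0.28, 0 and 0 CPM in wild type libraries 1 to 4 and 2.73, 4.26, 1.68, 5.03 and 6.9 CPM in knockout libraries 1 to 5, with no overlap (log2 difference 3.87 with SE 0.88, adjusted p = 0.0067, edgeR). Elovl2, an elongase of polyunsaturated chains, had 2 counts over the wild type group and 224 over the knockout group, a ratio of 49.3 with a 95% counting interval of 13.5 to 409.6 (adjusted p = 0.00367, edgeR). Me1 and Elovl2 were near 0 in wild type and passed the count filter only through the knockout libraries. Such genes enter the test only where they are higher in knockout. At equal depth more genes were detected in knockout, and the part of that in these calls was not tested. Hacd2, a dehydratase of the elongation cycle, fell, with 53.1 ± 6.19 CPM in wild type against 35.6 ± 4.88 CPM in knockout (log2 difference -0.57 with SE 0.12, adjusted p = 0.00469, edgeR). Of 9 glycerolipid genes 3 were higher and none lower, against 8.97% and 11.0% of all tested genes. Acsl3, an acyl-CoA synthetase of lipid droplets, rose, at 4.19 ± 0.658 CPM (SD, n = 4) in wild type against 13.1 ± 2.39 CPM (SD, n = 5) in knockout (log2 difference 1.64 with SE 0.22, adjusted p = 2.07e-04, edgeR), and Dgat2, which makes triglyceride, with 51.7 ± 6.8 against 87.9 ± 18.6 CPM (0.76, adjusted p = 0.00243). Acsl1 rose by 0.52 on the log2 scale (adjusted p = 0.0276, edgeR), and was not called after the length correction (0.105) or on leaving out knockout 1 (0.0578) or wild type 1, 2 or 4 (0.0834, 0.0507 and 0.0611).

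Type 2 epithelium, the surfactant-making cell of the lung, also synthesizes lipid, so its markers are given beside these results. Of 10 type 2 epithelial markers none was higher and 1, Lyz1, was lower, and Sftpc stood at 2.56 to 10.8 CPM in wild type and 3.1 to 6.54 CPM in knockout. Slc34a2 was at 0 in all wild type libraries and at most 0.593 CPM in knockout. The summed level of that list, nearly all of it Lyz1, which macrophages also express, was 1816 to 2292 CPM in wild type and 1509 to 1862 CPM in knockout. Of 8 interstitial macrophage markers 2 were called higher, Apoe among them, and none was called lower, and the summed level of the list was 67.5 to 109 CPM in wild type and 351 to 1889 CPM in knockout, nearly all of it Apoe. Among markers of neutrophils 1, Csf3r, was called higher, and none was called among those of monocytes, lymphocytes, fibroblasts, endothelium and erythroid cells. Over all tested genes 8.97% were called higher and 11.0% lower. Not tested, below the count filter, were 2 type 2, 1 interstitial macrophage, 2 neutrophil, 4 fibroblast, 2 endothelial and 3 lymphocyte markers. Knockout library 3 was highest for Apoe and for Insig1. The part of other cells in the changes of the lipid genes was not tested, and fewer cells of a type and less RNA per cell cannot be told apart in bulk RNA. Without knockout library 3 Insig1 had a log2 fold change of 0.46 (adjusted p = 0.00242, edgeR).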

How the data were processed

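The values the authors deposited are raw counts for each Entrez gene, beside its length, made with featureCounts on mm10 per the submitters' processing notes. The sources used here do not name the aligner, the versions, the annotation or the strand setting. The 9 single-library tables equalled the joint table, which was used. Symbols came from RefSeq (GRCm38.p6) for 25275 of 27179 identifiers. Knockout was compared with wild type over all 9 libraries in R 4.3.3 with edgeR 4.0.16 (filterByExpr, TMM, robust quasi-likelihood, Benjamini-Hochberg over 12840 genes). CPM are counts per 1000000 of the TMM-scaled library, and log2 CPM used a prior count of 2. The standard error was derived from the test statistic.

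The members and lists were chosen with earlier results of these data known, so branches are described by counts and medians, with no test. All 33 members are named, and other pathway genes where past the threshold, apart from some that are counted in the lists but not reported here. The length correction used a loess curve, of span 0.5, fitted in each library to the deviations of log2 CPM on log length. Its robust form was chosen after a least-squares curve had moved the median of all genes. Alternatives were DESeq2 1.42.0, voom (limma 3.58.1), other scalings, filters, thinning to 13814799 counts, a replicate block and leaving out each library. The fits were tested on simulated data. Floors and intervals of counts cover counting error only. Total counts were 13814799 to 45606001 per library, and 4 of 5 knockout libraries were deeper than every wild type library. Same-numbered libraries were not shown to be paired.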

Additional observations from a re-analysis of the deposited data

Results flagged for a closer look

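In 51 genes and 2 groups each, 102 groups were examined for a library far from the others, and 6 were found, where chance alone gives about 1 in 20. Of these, 3 were low values of knockout library 1 in sterol genes. Idi1 was at 43 CPM there, with the nearest library at 56 CPM. Fdft1 was at 53.5 CPM with the nearest at 66.1 CPM, and Msmo1 at 86.7 CPM with the nearest at 109.9 CPM.

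Wild type library 3 was far from its group for Hmgcs1, at 165 CPM with the nearest at 226 CPM, and for Scd1, at 17.7 CPM with the nearest at 3.62 CPM. Wild type library 2 was the only wild type library with counts of Elovl2, at 0.0801 CPM.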

How the results depend on the processing

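Over 50 genes and 21 alternatives, 1048 values were computed, of which 80 lost and 17 gained a call, and 5 with a call in either fit changed sign. In 62 more, spread over 16 genes, the sign differed with a call in neither fit. Least-squares length correction, fitted before the robust form was chosen, moved the median of all tested genes from 0.04 to -0.20. The 5 sign changes were there: Srebf2 -0.25, Acly -0.10, Fasn -0.34, Scap -0.022 and Mbtps1 -0.061. In that fit 468 genes were higher and 3131 lower, sterol genes gave 0 higher and 11 lower, fatty acid genes 0 higher and 2 lower, and the branch medians were -0.29 and -0.17. Scaling by totals alone called 1966 genes higher and 2 sterol genes higher, 2 sterol genes lower and 2 fatty acid genes higher. Fatty acid genes called higher were 0 with the robust length correction, 0 after thinning, 2 with no filter and 3 without both libraries numbered 3. Leaving out each library in turn gave 2 to 4 sterol genes lower and 0 to 3 fatty acid genes higher. Acacb, which could pass the filter only through the knockout libraries, is counted there without wild type 1, 2, 3 or 4. For these settings the cause was not tested.

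The replicate numbers were not shown to pair the libraries, since same-numbered libraries had correlations of their deviations of -0.06 to 0.11, and wild type library 1 was closer to knockout library 2 than to its own number. The replicate block, over 8 libraries, called 741 genes higher and 1121 lower, against 777 and 1100 for those libraries without the block. Under the block Elovl6 was called (adjusted p = 0.0182, edgeR) and Acly, Scap, Mbtps1, Nr1h3 and Ch25h were not (0.0925, 0.0506, 0.0763, 0.114 and 0.107). Without the block, the same 8 libraries gave no call for Acly, Scap, Mbtps1 and Nr1h3 either (adjusted p = 0.0927, 0.0525, 0.0800 and 0.0832, edgeR). Of the other genes named, Ch25h was called there (0.00771) and Elovl6 was not (0.465).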

Other observations

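Ratios between paralogs were computed in each library from levels per kilobase of gene length. The ratio of Insig1 to Insig2, the other Scap-retaining protein, was 3.22 to 4.37 in the 4 wild type libraries and 5.74 to 8.33 in the 5 knockout libraries. Insig1 rose, and Insig2, chosen for this ratio after its values were seen, had a log2 fold change of -0.35 (adjusted p = 0.0843, edgeR). The ratio of Srebf1 to Srebf2 was 0.496 to 0.622 in wild type and 0.477 to 0.657 in knockout. Scd1 to Scd2 was 0.0255 to 0.156 in wild type, with library 3 at the top, and 0.045 to 0.0851 in knockout. These ratios were not tested.

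Several genes share sequence with other annotated genes, which bears on any closer look. Among distinct 85-base stretches of their transcripts, 25.5% of those of Acaca, 22.7% of Fdps and 9.17% of Hmgcs1 occur in another gene. For Msmo1, Ebp, Nsdhl and Acly the share was 0%, 0%, 0% and 0%.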
